A study of Mus musculus with 6 samples.

Results

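The Kruppel-like factors are zinc finger transcription factors, and 10 genes of the family were compared between neural crest stem cells (NCSC) and mesenchymal stem cells (MSC) grown from mouse bone marrow. The genes were Klf2, Klf3, Klf4, Klf5, Klf6, Klf7, Klf9, Klf10, Klf13 and Klf15, and the array carried 34 probe sets annotated to exactly 1 of them, out of 34945 probe sets with a single gene. Of the 34 probe sets, 26 were bright enough to be tested, and they covered 9 of the 10 genes. Both groups consisted of 3 Affymetrix arrays. All cells came from bone marrow of female mice aged 10 weeks, of C57BL/6 x SV129 background, carrying wnt1/CRE-R26R-lacZ, a transgene in which Wnt1 sequences drive Cre recombinase and a reporter that Cre switches on. The Wnt1 sequences are active in the early neural crest, so in these mice cells of crest descent keep the reporter, and both groups carry the transgenes. Per the labels' protocols both cell types were cultured in Mesencult for 5 or more passages and then selected as clones, with no treatment. The labels number the replicates without naming animals or clones, so the p-values cover the spread among these 6 arrays alone, some of which may be technical, and clone effects and cell type effects cannot be told apart.

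Kruppel-like factors bind GC-rich and CACCC elements through a trio of zinc fingers at the carboxy end, and differ mainly in the part of the protein that recruits cofactors. By that part the family is usually divided into mostly activating members (among them Klf2, Klf4, Klf5, Klf6 and Klf7), members that bind the corepressor CtBP (Klf3, with Klf8 and Klf12) and members that bind the corepressor Sin3 (Klf9, Klf10 and Klf13, with Klf11, Klf14 and Klf16), while Klf15 stands outside these branches. In stromal cells several of them act in fat cell formation and in the switch of smooth muscle cells between contractile and growing states, and Klf2, Klf4 and Klf5 belong to the network that maintains embryonic stem cells.

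The labels were checked against markers of each cell type. All 6 neural crest and glial markers with a probe set exceeded a log2 intensity of 4 on at least 1 NCSC array. Intensities are the authors' GCRMA values taken to log2, and 4 is the limit used here for a signal above background. Sox10, the crest regulator, read 13.08, 12.83 and 12.62 on NCSC 1 to 3, against 3.92, 4.82 and 4.17 on MSC 1 to 3. S100b, which was not tested, read 7.72 and 7.29 on NCSC 1 and NCSC 2, but 2.15 on NCSC 3 and on every MSC array. Mesenchymal markers were present in both cell types. Of 10, 7 exceeded the limit on an NCSC array and 8 on an MSC array. Of 7 tested, 4 were lower in NCSC, with log2 differences of -4.04 (Vcam1), -3.17 (Pdgfra), -1.80 (Prrx1) and -0.58 (Cxcl12). Pdgfrb and Col3a1 were higher in NCSC, by 0.62 and 0.57, and Col1a2 was not called. Thy1 and Lum lay at the floor of the deposited values, 2.12, on all 6 arrays. Ptprc, which marks blood cells, was at that floor on every array, but the summed linear intensity of 7 macrophage and blood markers was 812 to 939 in NCSC, against 168 to 192 in MSC, and Cd68 was at least 27.9-fold higher in NCSC. Lyz2 and Fcer1g were higher in NCSC too, whereas Csf1r was not called (adjusted p = 0.196), Tyrobp was at or near the floor, and Cd14 read 2.16 to 2.19 in NCSC and 3.96 to 5.15 in MSC. The part of these markers in the results below was not tested. In each group 1 array stood somewhat apart from its replicates. Across the tested probe sets NCSC 1 and NCSC 2 correlated at 0.996 (Pearson), and NCSC 3 at 0.985 with each of them. MSC 1 and MSC 3 correlated at 0.997, and MSC 2 at 0.99 with each. Differences of the members' brightest probe sets are therefore also given without MSC 2 and NCSC 3.

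The promoters of 4 members are shown first, Klf4 and Klf2 for the widest gaps between the cell types and Klf13 and Klf9 as the genes higher in NCSC, so that the family's own binding elements in them can be seen. Windows from 250 bases before to 50 bases after the annotated start were taken from RefSeq (assembly GRCm38.p6), which held a window for 8 of the 10 genes and none for Klf5 and Klf10. Capitals mark 3 motifs searched on both strands, the GC box GGGCGG, the CACCC element and the motif of MEF2, a factor known to act on the Klf2 promoter. Neighbouring matches may overlap. The windows of Klf4 (chr4:55532426-55532725, minus strand) and Klf2 (chr8:72318812-72319111, plus strand), both lower in NCSC, are followed by those of Klf13 (chr7:63938866-63939165, minus strand) and Klf9 (chr19:23140976-23141275, plus strand), both higher in NCSC.
Klf4: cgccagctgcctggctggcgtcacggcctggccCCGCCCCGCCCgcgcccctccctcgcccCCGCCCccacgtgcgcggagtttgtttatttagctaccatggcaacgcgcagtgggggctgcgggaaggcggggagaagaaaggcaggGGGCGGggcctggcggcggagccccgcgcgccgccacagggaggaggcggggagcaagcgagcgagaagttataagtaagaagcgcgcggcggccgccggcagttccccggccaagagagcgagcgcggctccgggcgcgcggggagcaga
Klf2: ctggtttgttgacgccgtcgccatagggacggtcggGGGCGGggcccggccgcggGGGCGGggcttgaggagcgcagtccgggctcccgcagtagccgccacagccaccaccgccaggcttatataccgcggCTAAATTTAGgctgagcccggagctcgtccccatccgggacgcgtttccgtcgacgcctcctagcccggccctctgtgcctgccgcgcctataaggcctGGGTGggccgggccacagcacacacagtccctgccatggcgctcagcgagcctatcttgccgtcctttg
Klf13: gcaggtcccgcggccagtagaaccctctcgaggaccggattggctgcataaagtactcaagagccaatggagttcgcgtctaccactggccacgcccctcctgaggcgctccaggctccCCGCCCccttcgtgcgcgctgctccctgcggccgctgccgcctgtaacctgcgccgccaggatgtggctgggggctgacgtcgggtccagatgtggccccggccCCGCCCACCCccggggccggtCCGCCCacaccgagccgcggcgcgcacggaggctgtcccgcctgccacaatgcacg
Klf9: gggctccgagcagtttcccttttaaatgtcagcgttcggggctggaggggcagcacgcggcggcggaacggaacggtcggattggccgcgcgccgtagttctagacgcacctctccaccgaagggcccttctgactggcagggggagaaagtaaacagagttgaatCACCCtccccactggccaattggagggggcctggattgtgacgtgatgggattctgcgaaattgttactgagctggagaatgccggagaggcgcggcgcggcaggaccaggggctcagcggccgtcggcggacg
The GC box occurred in 7 of the 8 windows, against 35.7% of all 32851 promoter windows of the table, and the CACCC element in 6 of the 8, against 57.5%. Klf4 had 4 GC boxes and no CACCC element, and Klf3 had 6 GC boxes and 5 CACCC elements, whereas Klf9 had no GC box and 1 CACCC element. The member windows were also richer in G and C than most. The 4 printed windows had a GC content of 74.3% (Klf4), 69.3% (Klf2), 72% (Klf13) and 63.3% (Klf9), against a median of 52.7% over all windows. The MEF2 motif matched in the Klf2 window alone among the 8, as CTAAATTTAG beginning 118 bases before the start, and 3.19% of all windows held a match. These matches describe the letters of the windows and are no measure of binding.

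**Figure D1:**
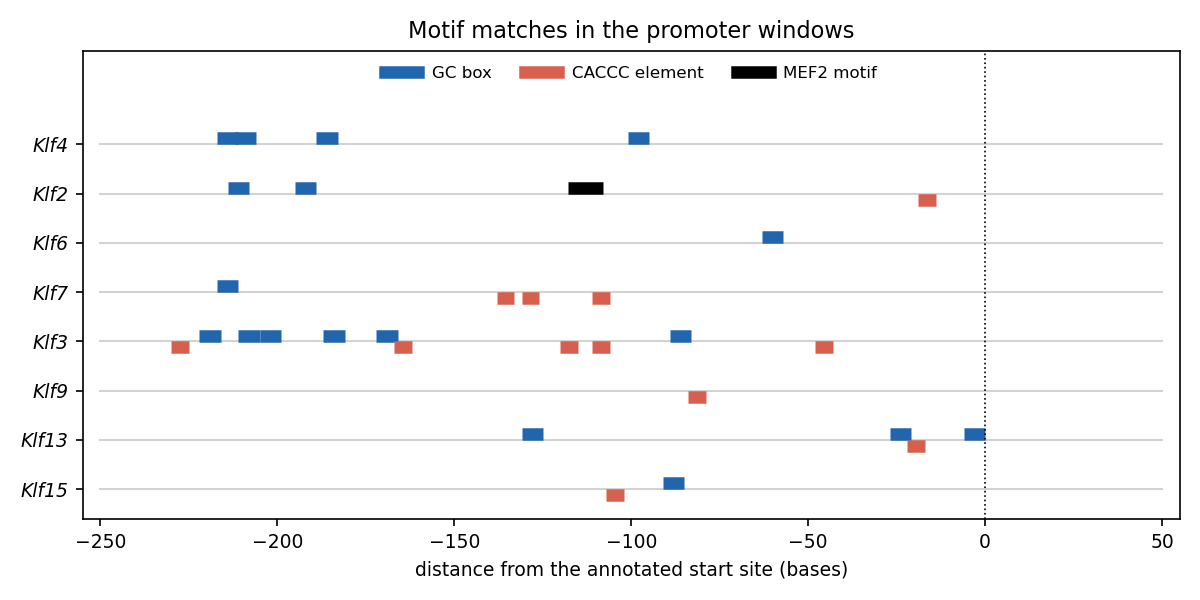
Positions of GC boxes (blue), CACCC elements (red) and the MEF2 motif (black) in the promoter windows of 8 Kruppel-like factor genes, with the distance from the annotated start site in bases on the horizontal axis and the start as a dotted line. Klf3 holds 6 GC boxes, Klf9 none, and the single MEF2 match lies in Klf2, 118 bases before the start.

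Across the members, 18 of the 26 tested probe sets differed between the groups at an adjusted p under 0.05 (limma's moderated test with Benjamini-Hochberg adjustment over all tested probe sets), here termed called. These were 69.2%, 7 higher and 11 lower in NCSC, while 60.1% of all 18640 tested probe sets were called, 33% higher and 27.2% lower. By the brightest probe set of each gene 2 of 9 genes rose, 5 fell and 2 were not called, beside 34.3% higher and 28.7% lower among all 10501 tested genes. By probe set the share of members called was thus near that of the array as a whole. By gene it was 77.8%, against 62.9% of all tested genes, and this gap was not tested. Calls of 2-fold or more numbered 5 of the 26 probe sets (19.2%), those of Klf2, Klf4 and Klf13, against 28.2% of all probe sets, or 3 of the 9 genes, against 29% of all genes. The groups did not overlap for 21 of the 26 probe sets (80.8%), against 68.4% of all, or for 7 of the 9 genes, against 71.2% of all genes. The median difference of the 9 genes was -0.58, beside 0.056 for all tested genes, and their median absolute difference was 0.62, beside 0.55.

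**Figure D2:**
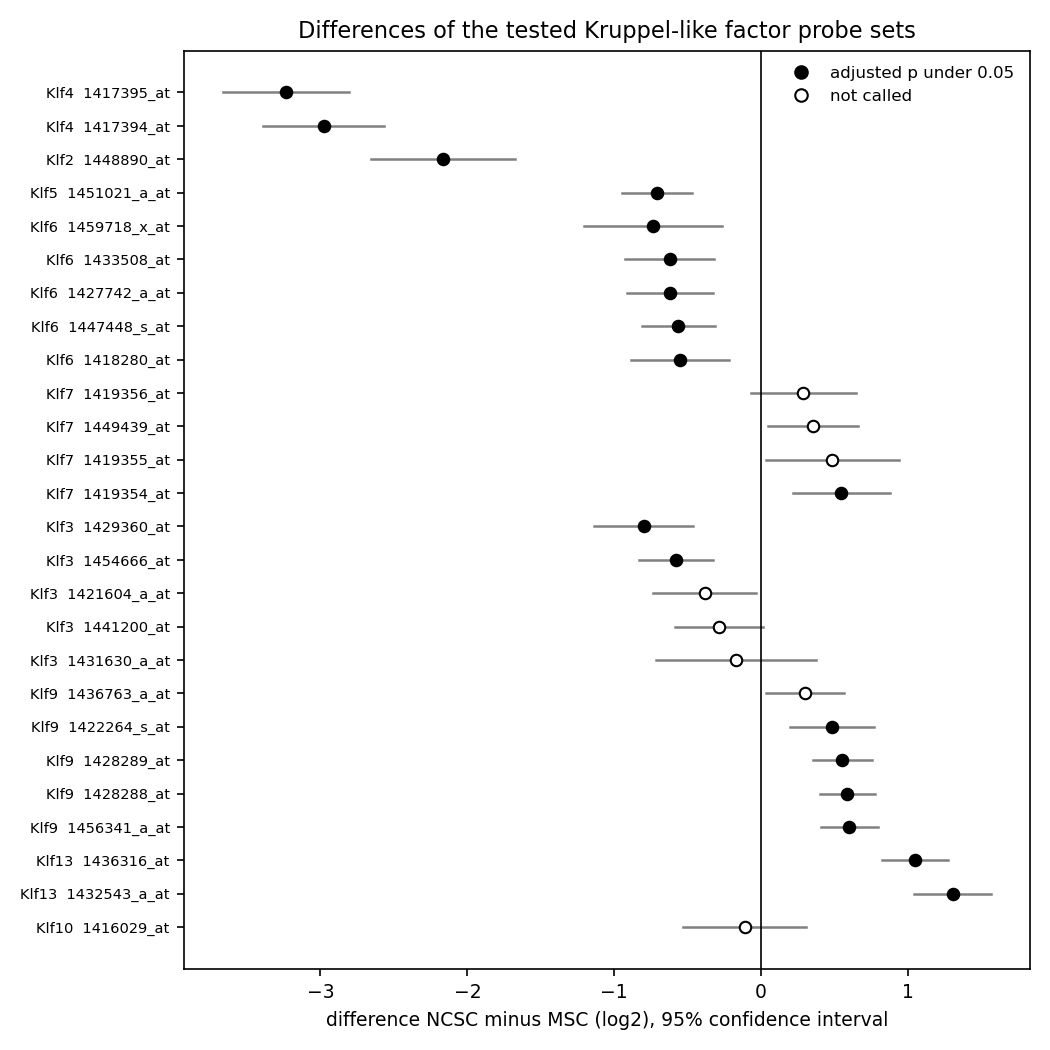
Difference between NCSC and MSC (log2, NCSC minus MSC) of each of the 26 tested probe sets with its 95% confidence interval; filled points were called at an adjusted p under 0.05. Klf4 reaches -3.23, the tested Klf6 sets run from -0.74 to -0.55, those of Klf9 from 0.30 to 0.60 and those of Klf3 from -0.80 to -0.17.

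Klf4 showed the widest gap of the family. It is a factor of skin and gut epithelium and of vessel walls, and is used with other factors to reprogram cells to pluripotency. On the log2 scale its brighter probe set read 10.11, 10.13 and 9.91 on NCSC 1 to 3, against 13.16, 12.68 and 13.25 on MSC 1 to 3. Every NCSC array lay below every MSC array, and the highest MSC value came from MSC 3 and the lowest from MSC 2. The mean was 10.05 ± 0.12 in NCSC and 13.03 ± 0.30 in MSC (SD, n = 3 each), so that Klf4 was 7.88-fold lower in NCSC, a difference of -2.98 ± 0.17 (SE of limma's fit, 95% confidence interval -3.39 to -2.57, adjusted p = 3.21e-05). The other Klf4 probe set gave 7.39, 7.38 and 7.41 in NCSC, against 10.87, 10.23 and 10.79 in MSC, a difference of -3.23 ± 0.18 (adjusted p = 2.81e-05). Without MSC 2 and NCSC 3 these differences were -3.08 and -3.44. The arrays measure RNA of whole cultures, so fewer cells with the transcript and less transcript per cell cannot be told apart, here or for the genes that follow.

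Klf2, the factor best known from endothelium under flow and from resting T cells, was also lower in NCSC. Its only probe set read 6.96, 7.19 and 6.41 on NCSC 1 to 3, against 9.05, 9.05 and 8.97 on MSC 1 to 3. The groups did not overlap, and NCSC 3 was the lowest of all arrays. The mean was 6.85 ± 0.40 in NCSC and 9.02 ± 0.050 in MSC (SD, n = 3 each), 4.5-fold lower in NCSC (difference -2.17 ± 0.20, adjusted p = 0.000241), and -1.93 without MSC 2 and NCSC 3. Since both genes are prominent in endothelium, its markers are given beside them. Of 7 endothelial markers, Pecam1, Cdh5, Kdr, Tie1 and Emcn were at the floor of 2.12 on all 6 arrays and Esam reached at most 2.13. Egfl7, the remaining marker, read 5.18 to 5.41 in NCSC and 6.48 to 7.19 in MSC. The summed linear intensity of the 7 markers was 62.5 to 68.6 in NCSC and 115 to 172 in MSC. Of 6 epithelial markers only Krt5 exceeded the limit, at an identical 5.05 on all arrays that gives only an upper limit to its level.

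The other activating members moved less. Klf5, which promotes growth of smooth muscle cells and early fat cell formation, was tested by 1 of its 3 probe sets, which read 9.09, 9.22 and 9.38 in NCSC, against 9.93, 9.95 and 9.94 in MSC. The MSC arrays were nearly equal, and all NCSC arrays lay below them. The difference was -0.71 ± 0.098, or 1.63-fold lower in NCSC (adjusted p = 0.00131), and -0.78 without MSC 2 and NCSC 3. A dim Klf5 probe set exceeded the limit only on MSC 1 and MSC 3, at 4.26 and 4.04, and the remaining one was at the floor.

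Klf6, a factor induced by injury and serum, fell in NCSC in all 5 of its probe sets. Their differences ran from -0.74 to -0.55, and in each of the 5 every NCSC array was below every MSC array. The brightest read 12.26, 12.27 and 12.33 in NCSC, against 12.77, 13.15 and 12.80 in MSC, with MSC 2 the highest array. Its difference was -0.62 ± 0.12, or 1.54-fold lower (adjusted p = 0.00575), and -0.52 without MSC 2 and NCSC 3. For 2 of the 5 the call rested on single arrays. Probe set 1418280_at (adjusted p = 0.0137) was not called without NCSC 2 (0.0506) or MSC 3 (0.0522), and 1459718_x_at (adjusted p = 0.0171) was not called without NCSC 2 (0.0565).

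Klf7, a factor of growing sensory and sympathetic neurons, differed from the other activating members in direction. All 4 probe sets had a higher mean in NCSC, by 0.29 to 0.55, but only 1419354_at was called (0.55 ± 0.14, adjusted p = 0.0143), and it was not called without NCSC 1 (0.0511) or NCSC 2 (0.0519). The brightest probe set read 10.67, 10.64 and 10.20 in NCSC, against 10.29, 10.13 and 10.24 in MSC. NCSC 3 lay among the MSC arrays, and NCSC 1 and NCSC 2 above all of them. This difference was 0.29 ± 0.15 (95% confidence interval -0.070 to 0.65, adjusted p = 0.136), and without NCSC 3 it was 0.44 and called (adjusted p = 0.00707), as were 1419355_at (0.63, 0.0274) and 1449439_at (0.43, 0.0314). Without MSC 2 and NCSC 3 the brightest probe set differed by 0.40 (adjusted p = 0.00686).

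Klf3, the CtBP-binding repressor known to restrain fat cell formation, fell in its 2 brightest probe sets. The brightest read 12.13, 12.17 and 11.91 in NCSC, against 12.64, 12.74 and 12.58 in MSC. All NCSC arrays were below all MSC arrays, and the difference of -0.58 ± 0.10 corresponded to 1.5-fold lower levels (adjusted p = 0.00375), and was -0.46 without MSC 2 and NCSC 3. Probe set 1429360_at differed by -0.80 ± 0.14 (adjusted p = 0.00329). The 3 dimmer probe sets that were tested were not called. Their differences were -0.38 (adjusted p = 0.0592), -0.29 (0.0865) and -0.17 (0.534). Without MSC 2 the differences of 1421604_a_at and 1441200_at were called (adjusted p = 0.0368 and 0.00803), as was 1421604_a_at without NCSC 1 (0.0382). Without NCSC 3 the difference of 1431630_a_at was 0.087. A further 2 Klf3 probe sets were too dim to test.

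Among the Sin3-binding members Klf13 changed most and was higher in NCSC. Klf13, known for its action on the chemokine gene Ccl5 in T cells, read 10.82, 10.62 and 10.58 on NCSC 1 to 3 in its brightest probe set, against 9.49, 9.25 and 9.37 on MSC 1 to 3. The groups were separated by more than 1 log2 unit. Klf13 was 2.47-fold higher in NCSC, a difference of 1.30 ± 0.11 (95% confidence interval 1.04 to 1.57, adjusted p = 0.000157), and of 1.29 without MSC 2 and NCSC 3. A second tested probe set agreed in size, at 1.05 ± 0.092 (adjusted p = 0.000191), and the remaining one was at the floor on all arrays.

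Klf9, a target of thyroid hormone and glucocorticoids that is abundant in maturing neurons, was higher in NCSC by a smaller step. Its brightest probe set read 14.07, 13.93 and 13.94 in NCSC, against 13.39, 13.38 and 13.37 in MSC. The MSC arrays were nearly equal and all NCSC arrays lay above them, a difference of 0.60 ± 0.079, or 1.52-fold (adjusted p = 0.00106), and 0.62 without MSC 2 and NCSC 3. Of the 5 tested Klf9 probe sets 4 rose, with differences from 0.49 to 0.60. The fifth, 1436763_a_at, differed by 0.30 and was not called (adjusted p = 0.0541), but was called without NCSC 2 (0.0183).

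Klf10 and Klf15 gave no call. Klf10, an early response gene of TGF-beta signalling, read 11.32, 11.53 and 11.45 in NCSC, against 11.72, 11.18 and 11.74 in MSC. The NCSC arrays lay between MSC 2 and the other MSC arrays. The difference was -0.11 ± 0.17 (95% confidence interval -0.53 to 0.31, adjusted p = 0.596), and without MSC 2 it was -0.30 and just called (adjusted p = 0.0493). Without both MSC 2 and NCSC 3 it was -0.31 and not called (adjusted p = 0.0501). Klf15, a glucocorticoid target of muscle, liver and fat, stayed at or close to the floor, with no array above 2.38.

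**Figure D3:**
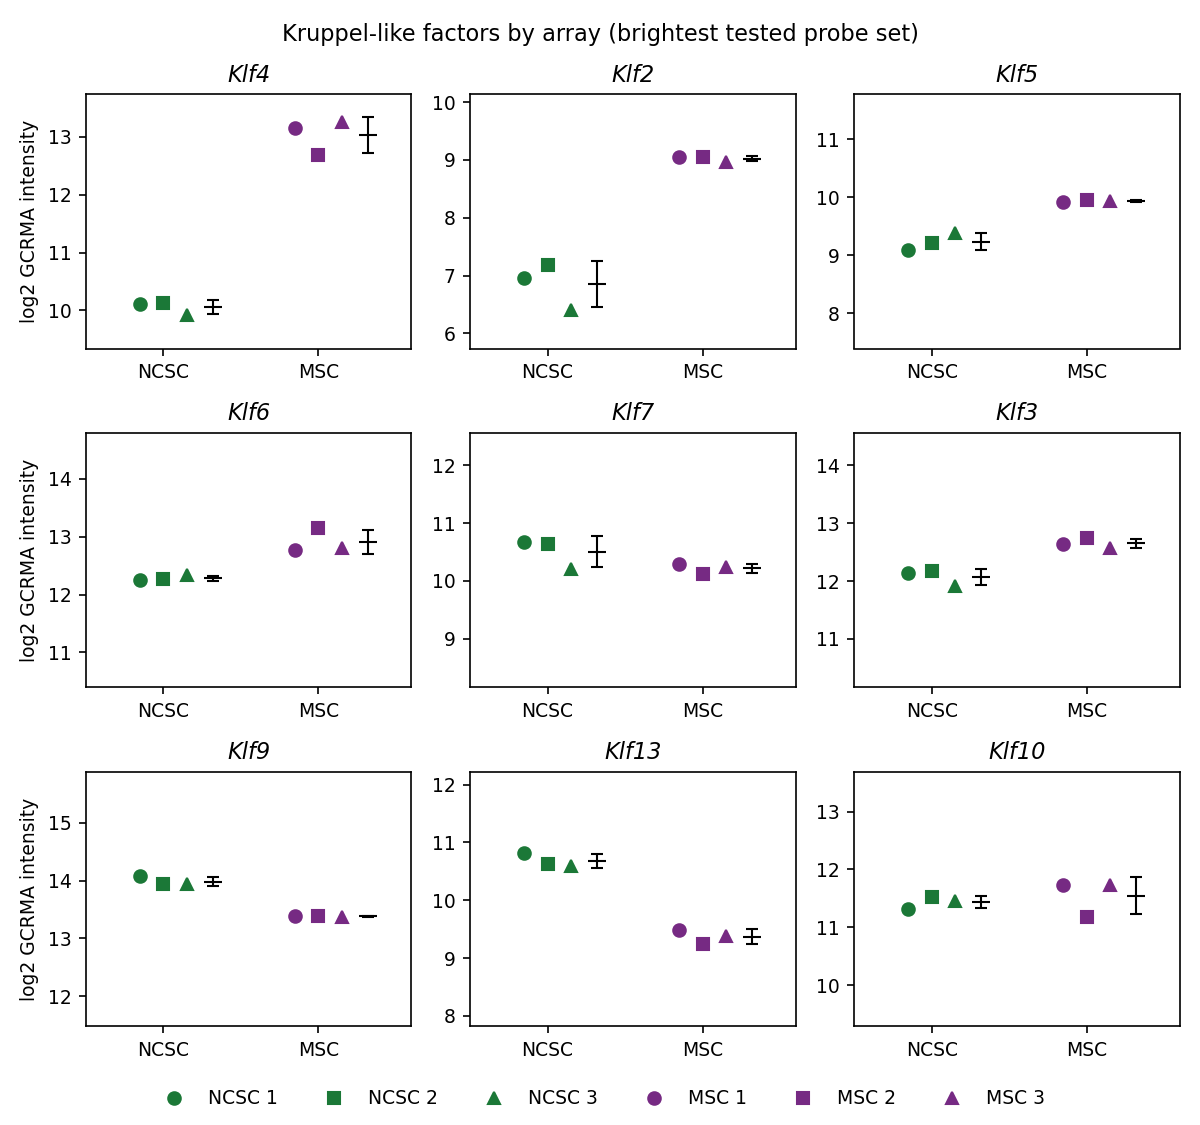
Log2 GCRMA intensity of the brightest tested probe set of 9 Kruppel-like factor genes on each array, NCSC in green and MSC in purple, with the mean and SD (n = 3) in black beside each group; every panel spans the same range of log2 units. Klf4 and Klf2 show the widest gaps, Klf13 and Klf9 are higher in NCSC, and the groups overlap for Klf7 and Klf10.

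The members also varied among replicates in the way of the arrays as a whole. NCSC 3 was the NCSC array farthest from the others for 17 of the 26 probe sets (65.4%, against 56.8% of all tested probe sets), and MSC 2 was the farthest MSC array for 17 as well (65.4%, against 55.5%). The median SD of the member probe sets was 0.136 in NCSC and 0.123 in MSC, beside 0.16 and 0.131 over all tested probe sets.

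The rest of the family was measured for comparison. Klf12, a CtBP-binding repressor like Klf3, moved the other way. It read 9.30, 8.98 and 8.59 in NCSC, against 6.92, 6.42 and 7.49 in MSC, in its brightest probe set, a difference of 2.01 ± 0.31 (adjusted p = 0.00199), and a second probe set differed by 1.88. Klf11, the closest relative of Klf10, was higher by 0.90 ± 0.16 (adjusted p = 0.00342). Klf16 differed by -0.42 ± 0.20 and was not called (adjusted p = 0.121), but was called without MSC 2 (-0.63, adjusted p = 0.0138). Klf1, Klf14 and Klf17 were at the floor on all arrays, and Klf8 had no probe set of its own in the annotation used. By branch, 4 of the 5 tested activating genes were lower in NCSC and none was called higher by its brightest probe set, with Klf7 not called. Of the 5 tested Sin3-binding genes 3 were higher and none was called lower, with Klf10 and Klf16 not called, and the pair of CtBP-binding genes split, Klf12 higher and Klf3 lower. Among all tested genes 34.3% were higher and 28.7% lower. With branches of this size these are counts, and the difference between branches was not tested.

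Genes that act on Kruppel-like factors were counted from lists of connected genes by the brightest probe set of each gene, where 62.9% of all genes were called. The ERK5 kinase cascade and MEF2 factors drive Klf2 and Klf4 in endothelium. Of its 7 genes 3 were higher in NCSC, none lower and 4 not called. Mef2c read 11.06, 10.87 and 11.08 in NCSC, against 7.59, 7.88 and 7.86 in MSC. It was higher by 3.23 ± 0.12 (adjusted p = 4.9e-06) in the cells with less Klf2 and Klf4 RNA. Mef2d was higher by 1.37 ± 0.13 (adjusted p = 0.000262), or by 0.59 with the mean of its tested probe sets. The kinase Map2k5 was higher by 0.43 ± 0.15 (adjusted p = 0.0439) and was not called when any 1 array was left out (0.0577 to 0.108). The ERK5 gene itself, Mapk7, differed by -0.22 ± 0.098 and was not called (adjusted p = 0.091).

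Genes tied to glucocorticoids and thyroid hormone, the hormones that act on Klf9 and Klf15, were counted as 6 glucocorticoid-responsive genes and 2 receptors. Thyroid hormone was represented on the list by its receptor Thra alone. Of the responsive genes 5 fell in NCSC, among them Zbtb16, which entered the test through MSC alone, and Tsc22d3 was not called (-0.18, adjusted p = 0.244). Both receptors fell, and the median of all 8 genes was -1.25, or -0.63 without Zbtb16. Among all tested genes 28.7% were lower. The phosphatase Dusp1, which is also an immediate early gene, read 8.97, 8.90 and 9.76 in NCSC, against 12.14, 12.84 and 12.09 in MSC (difference -3.15 ± 0.31, adjusted p = 0.000289). The transcription factor Zbtb16, under the limit on all NCSC arrays, was at least 2.17-fold lower, and the thyroid hormone receptor Thra was lower by 2.31 on the log2 scale (SE 0.11, adjusted p = 1.67e-05), with a difference of -1.38 by the mean of its tested probe sets. The glucocorticoid receptor Nr3c1 itself differed by -0.32 ± 0.091 (adjusted p = 0.0237), while Klf9 was higher in the same arrays.

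Genes of SRF and smooth muscle, on which Klf4 and Klf5 act in vessel walls, numbered 12 on the list, of which 8 were tested. Of these, 3 (Myl9, Cnn1 and Pdgfb) were at or under the limit in 1 group on average. These 3 so entered the test through the group where they are high. The other 5 were all lower in NCSC, with a median of -1.49, beside 28.7% lower among all tested genes. The myosin light chain Myl9 was at least 878-fold lower, calponin Cnn1 at least 318-fold lower, and the growth factor Pdgfb at least 253-fold higher. The immediate early factor Egr1, chosen from this list after its values were seen because it is induced by serum as several Kruppel-like factors are, read 11.95, 11.99 and 12.24 in NCSC, against 13.86, 14.28 and 13.88 in MSC (difference -1.94 ± 0.15, adjusted p = 0.000119). Egr1 and Dusp1 were thus lower together with Klf2, Klf4 and Klf6, and their part in those results was not tested. The adipogenic list holds genes tied to fat cell formation in either direction. Of its 9 tested genes, Pparg, Fabp4 and Gata3 likewise entered through MSC, where they are high. Of the other 6, 2 were higher, 2 lower and 2 not called, with a median of 0.21. The regulator of fat cell formation Pparg, which Klf2 restrains in mouse cells, fell at least 25.4-fold in NCSC, and its target Fabp4 at least 752-fold. Gata3 fell at least 7.18-fold, while its relative Gata2, among the other 6, was higher by 1.89 ± 0.26 (adjusted p = 0.00118).

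Cofactors and degradation enzymes moved in both directions. Of 11 tested corepressors and coactivators 3 were higher, 5 lower and 3 not called, with a median of -0.17. The deacetylase Hdac1 fell by 1.12 ± 0.14 on the log2 scale (adjusted p = 0.000944), the acetyltransferase Kat2b fell by 0.62 ± 0.099 and the Sin3 subunit Sin3a rose by 0.70 ± 0.17. Without NCSC 1, MSC 1 or MSC 3, or without the filter on dim probe sets, the calls on this list numbered 5 in place of 8. Of 8 ubiquitin ligases tied to Kruppel-like factors, 5 were higher, 2 lower and 1 not called, with a median of 0.88. Fbxo32 rose by 2.68 ± 0.29, Smurf1 by 1.68 ± 0.089 and Btrc by 1.45 ± 0.30, the last by 0.68 with the mean of its tested probe sets. Of 12 TGF-beta signalling genes 5 were higher, 3 lower and 4 not called (5 calls in place of 8 without NCSC 1 or NCSC 2). The ligands Tgfb1 and Tgfb2 rose by 2.97 ± 0.27 and 1.83 ± 0.10, and the inhibitor Tgif1 by 1.30 ± 0.15, whereas Klf10, their early response gene, was not called.

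**Figure D4:**
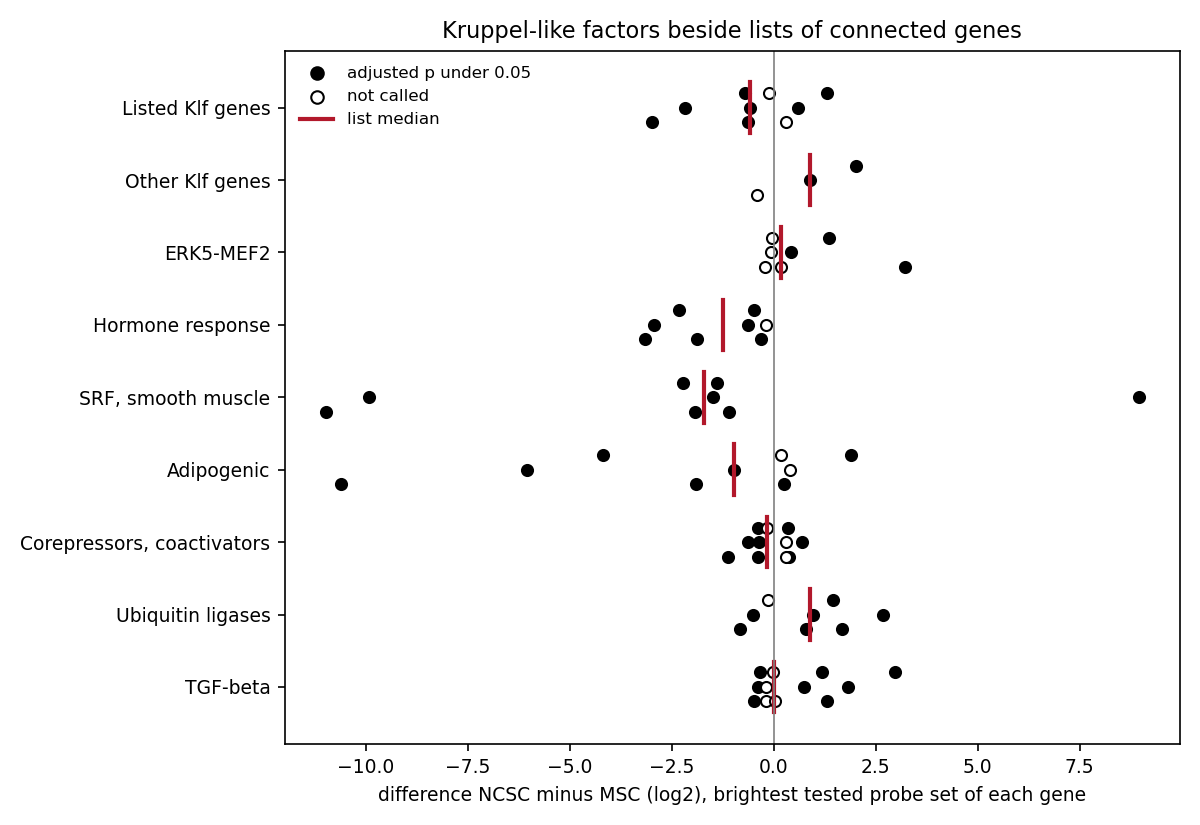
Difference between NCSC and MSC (log2, NCSC minus MSC) of each tested gene by its brightest probe set, for the listed Klf genes, the other Klf genes and 7 lists of connected genes; filled points were called at an adjusted p under 0.05 and red bars mark list medians. Hormone-response genes and receptors have a median of -1.25 with none called higher, genes at or under the limit in 1 group are drawn at their measured difference, and Mef2c reaches 3.23 on the ERK5-MEF2 list.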

How the data were processed

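RNA of NCSC and MSC was measured on 3 Affymetrix arrays each. The deposited values are linear intensities, 1 per probe set. GCRMA, which corrects background, normalizes between arrays and summarises probes, made them per the submitters' processing notes, and its version is not given in the sources used here. The linear scale was read from the values. Each value was taken to log2, with no further normalization. Probe sets were named from GEO's platform annotation, with symbols updated through RefSeq (GRCm38.p6): 34945 had 1 gene, 932 several, 9160 were unnamed here and 64 were controls. A probe set was tested when its log2 value was above 4 on at least 3 of the 6 arrays, which kept 18640. NCSC minus MSC was tested two-sided with the lmFit and eBayes functions of limma (version 3.58.1, under R 4.3.3) without covariates, with Benjamini-Hochberg adjustment over all tested probe sets, and called at an adjusted p under 0.05. The fit was tested on simulated data. A gene was represented by its tested probe set with the highest mean. Where the dimmer group's mean was at or under 4, the fold is a lower bound, with dimmer values under 4 set to 4. Named genes are all members and up to 3 called genes of each list with the largest absolute difference. Sox10 and the other markers given with values fall outside this rule and were named after their values were seen. The same holds for Klf16, Sp1, Sp3, Ccl5, Mapk7, Nr3c1, Tsc22d3, Gata2 and Egr1. The members, branches and lists were chosen with earlier results of these data known. The number of arrays limits the precision.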

Additional observations from a re-analysis of the deposited data

How the results depend on the processing

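Of 26 tested member probe sets, 15 of the 18 called ones kept their direction and call under every alternative tried except the test against a 2-fold change. The Klf4 probe sets ranged from -3.15 to -2.87 (1417394_at) and -3.44 to -3.11 (1417395_at), and Klf2 from -2.34 to -1.93 over those alternatives. Tested against 2-fold, 1571 probe sets were higher and 1283 lower, among them 0 and 3 member probe sets, or 0 and 2 member genes (Klf4 and Klf2); this test asks for a larger difference by construction. With array weights 11 member probe sets were called higher. Leaving out 1 array gave 6 to 10 member probe sets higher and 9 to 14 lower. Klf3 probe set 1431630_a_at, not called in any fit, turned to 0.051 with array weights, 0.087 without NCSC 3 (-0.34 to 0.087 when 1 array was left out) and 0.093 without MSC 2 and NCSC 3; the cause was not tested. Without the filter on low values Klf6 1418280_at and 1459718_x_at and Klf7 1419354_at were not called (adjusted p = 0.0503, 0.075 and 0.0521). With the mean of its probe sets Klf7 was called higher (0.42, adjusted p = 0.0403). Same-numbered NCSC and MSC arrays did not deviate together (correlations of -0.094, 0.0656 and 0.0436 for numbers 1 to 3). With 3 arrays in each group, and NCSC 3 and MSC 2 standing apart, this cannot decide whether the numbers pair the arrays. The labels do not say. With the replicate block 7 member probe sets were higher and 10 lower, and Klf6 1459718_x_at was not called (adjusted p = 0.0501). The TGF-beta list then had 5 calls in place of 8. With values above 4 required on all 6 arrays, the smooth muscle list had 5 calls in place of 8 and the adipogenic list 4 in place of 7. The same alternatives and the split by limit were applied to the lists after seeing the data. Array number and the floor at 2.12 limit what dim probe sets can show.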

Other observations

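Genes known as targets or partners of single Kruppel-like factors were counted from further lists. The counts use the brightest probe set of each gene, where 34.3% of all tested genes were higher and 28.7% lower. Of endothelial targets of Klf2 and Klf4, Procr and Cav1 were lower in NCSC, as was Thbd, which entered the test through MSC alone. Thrombomodulin (Thbd), an anticoagulant receptor, was at least 187-fold lower, at 2.33, 2.79 and 2.33 in NCSC, against 11.34, 11.93 and 11.37 in MSC. The protein C receptor Procr fell by 4.36 ± 0.098 and caveolin Cav1 by 2.23 ± 0.10 on the log2 scale (SE). The endothelial markers Pecam1, Cdh5 and Kdr were at the floor in both cell types. Of 8 pluripotency factors 3 were tested, while Pou5f1, Nanog, Esrrb, Tfcp2l1 and Zfp42 did not exceed the limit on any array. Sox2, tested through NCSC alone, was at least 741-fold higher in NCSC and Tbx3 higher by 1.37 ± 0.095. Myc fell by 1.19 ± 0.24, in the same direction as Klf2, Klf4 and Klf5.

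The list named for neural and growth targets of Klf6, Klf7 and Klf9 had 7 tested genes, of which 2 (Ngfr and Ccl5) were at or under the limit in 1 group. Of the other 5, 2 were higher, 2 lower and 1 not called. Ccl5, named above as a gene on which Klf13 acts, was at least 6.65-fold lower in NCSC, where Klf13 was higher. The neurotrophin receptor Ngfr was at least 257-fold higher, the adhesion molecule L1cam was at least 279-fold higher, read against an identical 5.42 on all MSC arrays that gives only an upper limit, and endoglin (Eng), a target of Klf6 in endothelium, rose by 4.69 ± 0.25 where Klf6 was lower. Of the related Sp factors, Sp4 was higher in NCSC (1.14 ± 0.14, adjusted p = 0.000665). Sp1 (-0.34 ± 0.19, adjusted p = 0.167) and Sp3 (0.15 ± 0.084, adjusted p = 0.157) were not called, although Sp1 was called lower without NCSC 3 (-0.53, adjusted p = 0.0108).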
